A study of Mus musculus with 2 samples.

Results

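Gpr17-high cells of the oligodendrocyte lineage were taken from single-cell RNA profiles of mouse lateral striatum, in the step between dividing precursors and newly formed oligodendrocytes. Members were chosen by their own transcripts. A barcode needed 500 or more genes, mitochondrial UMIs of no more than 15% (a UMI, or unique molecular identifier, stands for 1 captured RNA molecule) and at least 10 Gpr17 UMIs per 10000. It also had to hold under 5 UMIs per 10000 of Enpp6 and Tcf7l2 summed, which mark newly formed cells, and under 40 of Mobp, Mog and Mal summed, which mark myelinating cells. The rule found 191 cells among 4841 barcodes, of which 74 were contralateral and 117 ipsilateral.

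The study used male C57/BL6 mice that underwent middle cerebral artery occlusion lasting 60 minutes at postnatal day 10, followed by 2 weeks of reperfusion. The ipsilateral library came from the side of the occlusion and the contralateral library from the opposite striatum of operated mice, so no striatum without a stroke in the other hemisphere is compared here. Each library pooled lateral striata from 3 animals, and the sort kept cells carrying A2B5, a ganglioside antigen, and/or the sulfatide antigen O4. With 1 library per side there is no replicate check, no test was made, and every interval below covers counting error only at the 95% level.

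Oligodendrocyte precursors are proliferating cells held in that state in part by platelet-derived growth factor acting on the receptor encoded by Pdgfra. On leaving the cell cycle they pass through a short stage marked by Gpr17, a Gi-coupled receptor that restrains further maturation, before they extend processes and switch on myelin genes. Neu4, a sialidase that trims sialic acid from surface glycans, and Bmp4, a secreted bone morphogenetic protein, are markers of the same stage. In adult brain, Gpr17-positive cells are known to react to ischemic injury.

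Comparison cells were the 521 barcodes (233 contralateral, 288 ipsilateral) under the same other limits with at least 5 Pdgfra and under 10 Gpr17 UMIs per 10000, called Pdgfra precursors below. Newly formed cells numbered 97 and 193, with at least 2 Enpp6 UMIs and at least 5 of Enpp6 and Tcf7l2 summed. The 74 contralateral Gpr17-high cells held 866571 UMIs (median 10916 per cell) and the 117 ipsilateral cells 1711998 (median 13229). Median depth in Pdgfra precursors was 10148 and 12489.5 UMIs. No barcode was shared between the libraries. The doublet caller Scrublet marked 0 of 74 and 2 of 117 Gpr17-high cells.

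The label of a committed precursor held in part. Olig1, a transcription factor of the whole lineage, had a UMI in all 74 contralateral and in 116 of 117 ipsilateral cells. Neu4 had a UMI in 69 and 108 cells and Bmp4 in 48 and 80, so 35.1% and 31.6% of the members showed no Bmp4 transcript. Pdgfra had a UMI in 66 of 74 and 90 of 117 cells. At least 5 Pdgfra UMIs per 10000, the level that defined the precursors, were present in 49 and 66. The Gpr17 threshold therefore gathered cells that were still Pdgfra-positive together with cells that had little or none, and these are described apart further on.

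Markers of microglia, fibroblasts and mural cells were at or near 0 in the Gpr17-high cells, while some of other types were present. Of the 4 defining microglial genes (Cx3cr1, Csf1r, C1qa, Tyrobp) all were at 0 contralaterally and 3 ipsilaterally. Summed fibroblast markers reached 0 and 1.17 CPM (summed UMIs scaled to the class total, with 100 CPM equal to 1 UMI per 10000) and mural markers 2.31 and 1.75 CPM. The 4 astrocyte markers were 307 and 239 CPM in Gpr17-high cells and 473 and 423 CPM in Pdgfra precursors. The 3 endothelial markers (Cldn5, Flt1, Pecam1) were 17.3 CPM contralaterally and 114 CPM ipsilaterally, where they ranged per cell from 0 through a median of 0 to 45.9 per 10000. The 4 neuroblast markers were 121 and 126 CPM (125 and 132 CPM in precursors), with single cells up to 5.25 and 53.1 per 10000, and the 3 neuron markers 85.4 and 74.8 CPM (89.9 and 77.6 CPM in precursors). Mature oligodendrocyte markers, part of which the rule bounds, were 282 and 395 CPM.

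Gpr17-high cells made up a similar share of each library. They were 3.87% of the 1913 kept contralateral barcodes (3.05 to 4.83) and 4.67% of the 2505 kept ipsilateral ones (3.88 to 5.57). They differed by 0.80 points (-0.45 to 2.02), which was not detectable at this depth. Among barcodes with at least 5 UMIs per 10000 of the lineage genes Olig1, Olig2 and Sox10 summed, the shares were 7.14% and 6.76%. The sort and the recovery of cells set part of these shares.

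Cells just inside the threshold differed from those just outside it in Bmp4 and Pdgfra more than in Neu4. Contralaterally, the 10 cells just inside it, with 10 to 11 Gpr17 UMIs per 10000, had 143 CPM of Bmp4 and 1121 CPM of Pdgfra. This Bmp4 value leaned on 1 cell of 17813 UMIs, which had 5.05 Bmp4 UMIs per 10000. The 13 cells just outside, with 9 to 10, had 45.9 and 1436 CPM. Ipsilaterally, 15 cells inside had 180 CPM of Bmp4 and 740 CPM of Pdgfra, and 15 cells outside had 50.3 and 1544 CPM. Neu4 was 447 and 380 CPM inside against 485 and 442 CPM outside.

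Neu4 and Bmp4 are the stage's other markers. Neu4 lies on chromosome 1 from 94020451 to 94028334 (plus strand) and Bmp4 on chromosome 14 from 46383520 to 46390669 (minus strand) in GENCODE M21 on mm10. Their promoters are shown because these genes are the stage's markers besides the gene of the rule. Newly formed cells had both as well, so neither sets the stage apart from them. Each window runs from 250 bases before to 50 after the RefSeq transcription start (GRCm38.p6, the same build), 5′ to 3′ on the gene's strand. Capitals mark E-boxes, the letters CANNTG that basic helix-loop-helix factors such as those of the Olig family can bind. The motif is its own reverse complement in outline, so 1 scan covers both strands.
Neu4, chr1:94020243-94020542: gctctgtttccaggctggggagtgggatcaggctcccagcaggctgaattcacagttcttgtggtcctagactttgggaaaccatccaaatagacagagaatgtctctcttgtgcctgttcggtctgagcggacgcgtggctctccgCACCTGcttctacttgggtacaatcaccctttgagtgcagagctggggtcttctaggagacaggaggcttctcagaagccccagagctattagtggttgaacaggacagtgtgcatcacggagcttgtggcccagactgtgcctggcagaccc
Bmp4, chr14:46390620-46390919: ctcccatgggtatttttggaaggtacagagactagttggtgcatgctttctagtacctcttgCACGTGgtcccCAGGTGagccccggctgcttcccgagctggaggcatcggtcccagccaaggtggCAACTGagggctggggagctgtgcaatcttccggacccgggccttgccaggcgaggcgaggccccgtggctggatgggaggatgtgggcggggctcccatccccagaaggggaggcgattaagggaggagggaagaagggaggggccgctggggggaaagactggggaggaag
The Neu4 window held 1 match and the Bmp4 window 3, against a median of 1 over all 32851 promoters of the table, of which 72.3% held at least 1. A match describes letters only. Neither window held the letters ACAAAG or CTTTGT, which are present in 18.7% of promoters.

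Per cell, Neu4 in contralateral Gpr17-high cells ran from 0 through a median of 5.94 to 17.98 UMIs per 10000, and in ipsilateral ones from 0 through 4.92 to 18.3. In Pdgfra precursors the medians were 2.84 and 2.45. Summed Neu4 was 353 and 289 CPM in precursors and 613 and 500 CPM in Gpr17-high cells (contralateral, then ipsilateral, as throughout). The log2 ratio of Gpr17-high cells over precursors, taken here and below after adding 5 CPM to both values, was 0.79 and 0.78. Neu4 was therefore higher in Gpr17-high cells by similar amounts on both sides. The ranges of single cells overlapped widely, with precursors running from 0 to 18.8 and 16.2 UMIs per 10000.

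Bmp4 had the largest mean ratio of the genes outside the rule. Per cell it ran from 0 through a median of 1.08 to 16.9 UMIs per 10000 contralaterally and from 0 through 2.03 to 20.1 ipsilaterally, whereas the median of Pdgfra precursors was 0 on both sides. Summed Bmp4 was 39.0 and 40.5 CPM in precursors and 317 and 431 CPM in Gpr17-high cells, log2 ratios of 2.87 and 3.26. After random thinning of every cell to 6921 UMIs, with 11 contralateral and 13 ipsilateral shallower members set aside, 61.9% (48.8 to 73.9) and 63.5% (53.4 to 72.7) of Gpr17-high cells had a Bmp4 UMI. The share was 18.4% and 19.9% in precursors. It was 4.51% and 5.21% in endothelial cells (Cldn5 at least 10 per 10000), taken as a class outside the lineage. Whether they express Bmp4 was not tested. In newly formed cells the share was higher than in members, at 94.6% and 93.5%. Mature cells, with Mobp, Mog and Mal summed at 40 or more per 10000, had 7.47% and 7.55%. The ipsilateral endothelial class includes 1 barcode that is also a Gpr17-high member. Without thinning the members' shares were 64.9% and 68.4%, and those of endothelial cells, whose median UMIs were 8371 and 8638, were 5.41% and 3.88%.

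Across bins of Gpr17 the markers followed different courses. Bmp4 was 32.7 and 30.5 CPM in precursors with over 0 to 5 Gpr17 UMIs per 10000 and 42.4 and 50.6 CPM in those with 5 to 10. It then was 156 and 293 CPM in members with 10 to 20 (57 and 81 cells), 587 and 657 CPM with 20 to 40 (10 and 33 cells), and 1008 and 1209 CPM with 40 or more (7 and 3 cells). Fyn, a Src-family kinase needed for process outgrowth and myelin initiation, went from 277 and 262 CPM in the bin just under the threshold to 337 and 642, 1732 and 1579, and 2569 and 2188 CPM. Pdgfra ran the other way, at 1404 and 1388 CPM under the threshold, then 994 and 832, 423 and 244, and 33.2 and 0 CPM. Neu4 was 416 and 354 CPM just under the threshold and 569 and 425 CPM in the first bin above it. It was 648 and 661 CPM with 20 to 40, and 864 and 537 CPM with 40 or more. The 9 and 22 precursors with no Gpr17 UMI had 127 and 65.4 CPM of Bmp4, from 8 and 12 UMIs. The bins use the gene of the rule, and those under the threshold hold only cells with at least 5 Pdgfra UMIs per 10000. Members had no such limit. It sets part of the step in Pdgfra across the threshold, and may set part of it in genes that vary with Pdgfra. The highest bin rests on 10 cells in all.

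**Figure D1:**
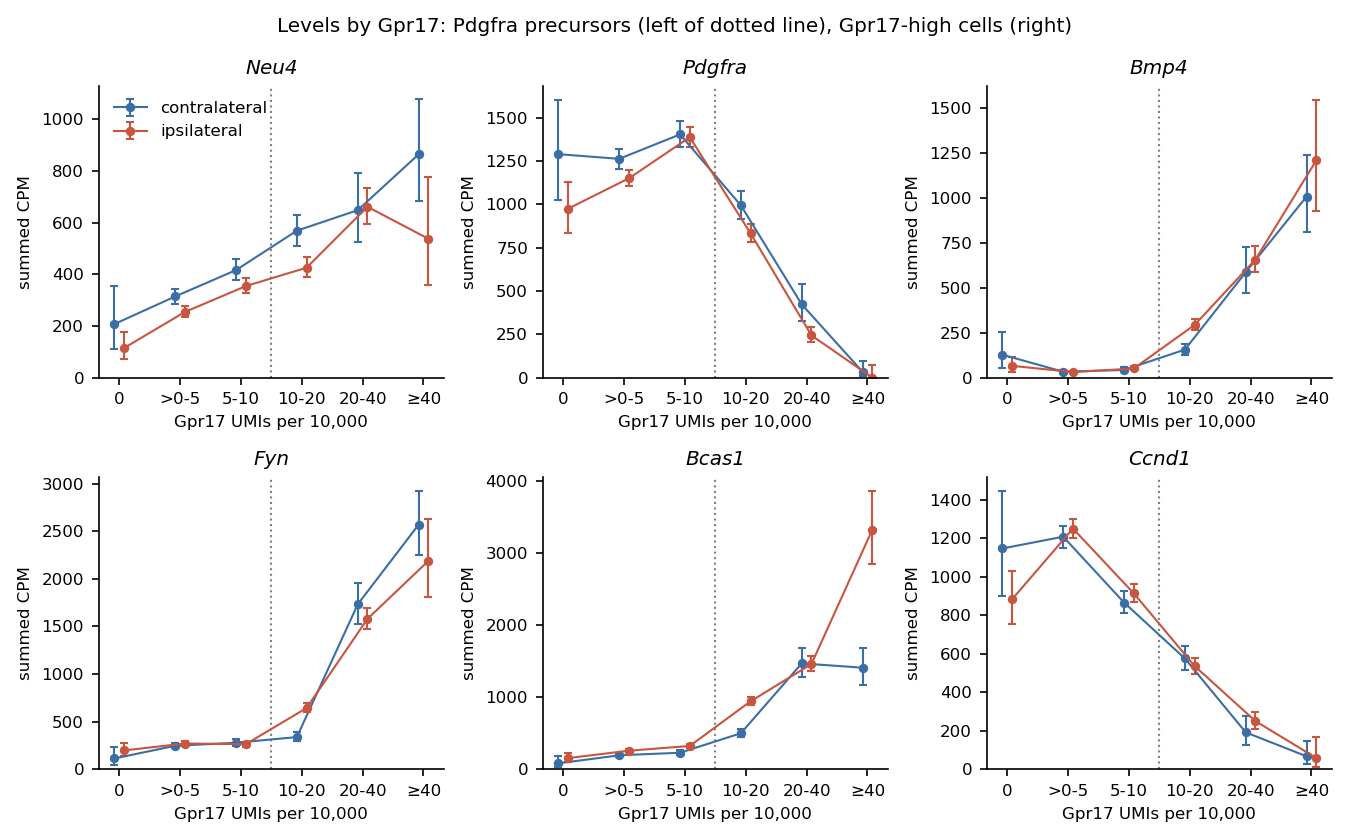
Summed CPM (y axis, linear from 0) of 6 genes in bins of Gpr17 UMIs per 10000 (x axis), contralateral in blue and ipsilateral in red, with bars for 95% Poisson intervals of counting. Left of the dotted line, in precursors, Bmp4 is at most 127 CPM, and Bmp4, Fyn and Bcas1 are higher in each Gpr17-high bin up to 20 to 40, while Pdgfra and Ccnd1 are lower. Only bins left of the line were limited to cells with at least 5 Pdgfra UMIs per 10000.

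Levels of other genes were graded when the Gpr17-high cells were split by Pdgfra. The 49 and 66 cells with at least 5 Pdgfra UMIs per 10000 had 159 and 125 CPM of Bmp4, 423 and 322 CPM of Fyn, and 3973 and 3844 CPM of Cspg5, a chondroitin sulfate proteoglycan of precursors. The 17 and 24 cells with fewer than 5 but some Pdgfra had 272 and 386 CPM of Bmp4, 659 and 963 CPM of Fyn, and 1333 and 900 CPM of Cspg5. The 8 and 27 cells with no Pdgfra UMI had 1120 and 943 CPM of Bmp4, 2801 and 1983 CPM of Fyn, and 251 and 278 CPM of Cspg5. Bmp4 and Fyn were thus higher, and Cspg5 lower, at each step away from Pdgfra in both libraries.

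Other genes differed along the same split. Hes5, a target of Notch signalling, was 376 and 402 CPM, then 176 and 88.0 CPM, then 16.7 and 16.02 CPM. Mycl, a MYC-family transcription factor, was 117 and 109 CPM, then 221 and 311 CPM, then 502 and 435 CPM. Cyclin D1 (Ccnd1), which drives entry into S phase, was 587 and 690 CPM, then 332 and 320 CPM, then 66.9 and 142 CPM. Sox10, a transcription factor kept through the whole lineage, stayed between 519 and 603 CPM in the 6 groups. Neu4 was 549 and 543 CPM with Pdgfra at 5 or more, and 828 CPM contralaterally against 483 CPM ipsilaterally with no Pdgfra UMI.

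**Figure D2:**
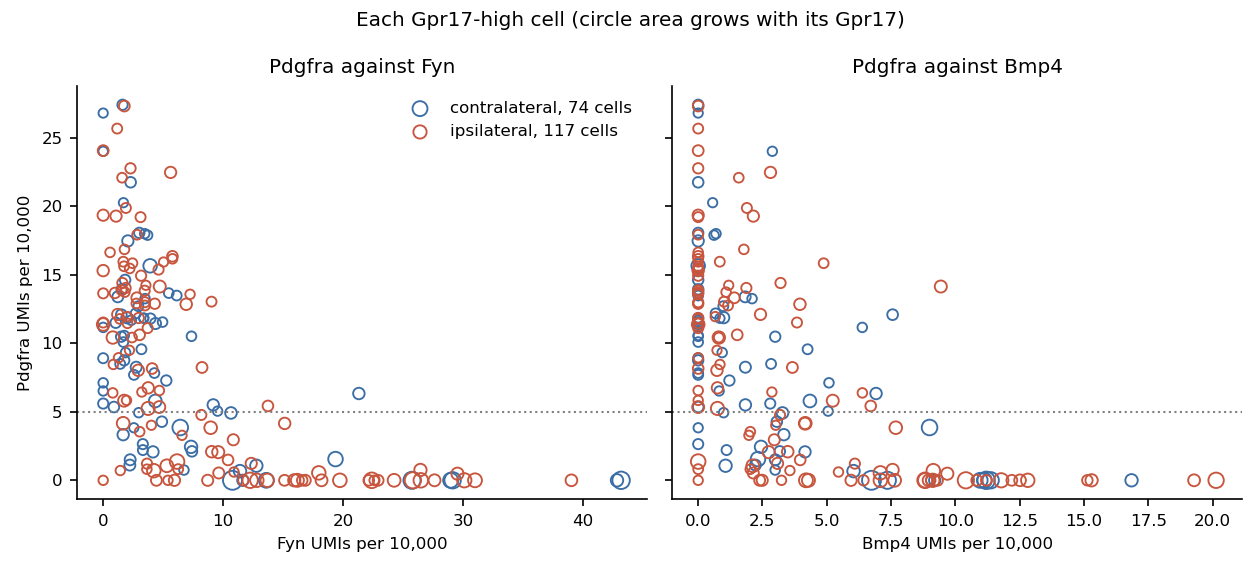
Each circle is 1 Gpr17-high cell (74 contralateral in blue, 117 ipsilateral in red), with Pdgfra on the y axis and Fyn or Bmp4 on the x axis, all in UMIs per 10000, and circle area growing with Gpr17. In each library 1 cell has both at least 5 Pdgfra and at least 10 Fyn, and 5 contralateral and 4 ipsilateral cells have at least 5 of both Pdgfra and Bmp4.

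Fewer ipsilateral members had Pdgfra, within wide intervals. Members with no Pdgfra UMI were 10.8% contralaterally (4.78 to 20.2) and 23.1% ipsilaterally (15.8 to 31.8), a difference of 12.3 points (0.39 to 22.8), although ipsilateral cells were the deeper ones. Members with under 5 Pdgfra UMIs per 10000 were 33.8% and 43.6%, a difference of 9.81 points whose interval of -5.23 to 24.0 held 0. Members with at least 5 Bmp4 UMIs per 10000 were 20.3% and 27.4%, and those with at least 10 Fyn UMIs 17.6% and 26.5%, and both intervals of the difference held 0 as well. These shares come from 1 library per side.

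Against Pdgfra precursors, the Gpr17-high cells combined higher transcripts of the committed stage with lower cell-cycle, cyclin D and growth-factor feedback transcripts. The rule set this contrast through Gpr17 and the precursors' Pdgfra, so the counts describe the classes and carry no test. Of 7704 genes compared, 32 (0.415%) had a log2 ratio of at least 1 in both libraries and 77 (0.999%) of at most -1. Above 0 in both libraries were 29.6% and below 0 in both 33.4%, and the median ratios over all genes were -0.03 and 0.00. Of 17 measured committed-stage genes (of 18 listed), 16 were above 0 in both libraries and 7 past 2-fold, with medians of 0.79 and 0.92.

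The 10 genes with the largest ratios were led by Bmp4. After it came Mycl, at 45.8 and 40.7 CPM in precursors and 194 and 256 CPM in Gpr17-high cells. Cdkn1c, the cyclin-dependent kinase inhibitor p57Kip2, followed at 31.4 and 24.3 against 141 and 113 CPM. Bcas1, a protein of early myelinating oligodendrocytes, was 203 and 277 against 756 and 1169 CPM, and Fyn 255 and 262 against 805 and 973 CPM. Epb41l2, a protein 4.1 family member that links membrane to cytoskeleton, was 40.6 and 40.5 against 108 and 206 CPM. Myrf, the transcription factor that switches on myelin genes, was 12.7 and 19.5 against 61.2 and 57.2 CPM. The kinases Pak4 (31.4 and 27.4 against 106 and 95.2 CPM) and Ulk3 (7.16 and 7.17 against 41.5 and 25.7 CPM) and the zinc-finger gene Zfp365 (34.6 and 32.3 against 94.6 and 131 CPM) completed the 10.

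Some of these transcripts peaked in Gpr17-high cells and others went on to higher levels in newly formed cells. Cdkn1c was 54.9 and 77.9 CPM in newly formed cells, below its level in Gpr17-high cells. Bmp4 was 1275 and 1225 CPM there, Fyn 3327 and 3418 CPM, Bcas1 2310 and 2963 CPM and Epb41l2 1073 and 1010 CPM, all above the Gpr17-high level. Neu4 was 625 and 486 CPM and Gpr17 2127 and 1895 CPM, close to the 613 and 500 and the 1987 and 1893 CPM of Gpr17-high cells. Tmsb4x, which sequesters actin monomers, was 2227 and 2453 CPM in precursors, 5618 and 7186 CPM in Gpr17-high cells and 4904 and 5144 CPM in newly formed cells.

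Transcription factors divided between the classes. Of 29 measured factors of the lineage, 13 were above and 13 below 0 in both libraries (29.6% and 33.4% over all genes). Nkx2-2, a homeodomain factor of oligodendrocyte differentiation, was 95.9 and 109 CPM in precursors and 227 and 316 CPM in Gpr17-high cells. Sox8, a relative of Sox10, was 190 and 164 against 381 and 356 CPM, and Zeb2, a repressor that blunts BMP and Notch responses, 326 and 344 against 607 and 593 CPM. Lower in Gpr17-high cells were Etv4, a target of receptor tyrosine kinase signalling (102 and 90.7 against 56.5 and 43.2 CPM), and Sox11 (374 and 388 against 260 and 264 CPM).

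Of 15 measured precursor genes other than Pdgfra, 11 were below 0 in both libraries and 3 above (33.4% and 29.6% over all genes). Their medians were -0.19 and -0.35. Cspg5 was 4234 and 3750 CPM in precursors and 2854 and 2042 CPM in Gpr17-high cells, and Xylt1, which starts proteoglycan sugar chains, 416 and 382 against 343 and 213 CPM. C1ql1, a secreted C1q-like protein, was 1339 and 1276 against 1470 and 1358 CPM. None of the 15 was past 2-fold in both libraries. Over all genes 0.999% were past 2-fold lower in both and 0.415% higher, so this count does not set them apart.

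Summed transcripts of G2 and M phase were lower on both sides and close to absent contralaterally, and those of S phase were lower. Per cell, S phase medians were close, at 3.06 and 3.03 UMIs per 10000 in Gpr17-high cells and 3.41 and 3.36 in precursors. The 20 S phase genes summed to 752 and 1112 CPM in Pdgfra precursors and to 312 and 411 CPM in Gpr17-high cells, of which 10 of 74 and 29 of 117 had at least 5 such UMIs per 10000. The 20 G2 and M phase genes summed to 866 and 1353 CPM in Pdgfra precursors and to 35.8 and 148 CPM in Gpr17-high cells. None of 74 contralateral Gpr17-high cells had at least 5 G2 and M UMIs per 10000, which allows a share of up to 4.05% at a floor of 3 counts and 4.86% by the exact interval, and 6 of 117 ipsilateral cells did (5.13%, 1.91 to 10.8). Among precursors 23 of 233 and 42 of 288 did. Top2a, the topoisomerase of dividing cells, was 127 and 245 CPM in precursors and rested on 1 contralateral UMI in Gpr17-high cells (1.15 CPM), with 6.43 CPM ipsilaterally. Mki67, the Ki-67 antigen, was 61.3 and 113 against 2.31 and 10.5 CPM. Pclaf, Prc1, Cenpf, Ube2c, Cdk1, Birc5 and Kif11 were lower likewise, with log2 ratios between -3.73 and -2.35.

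Cyclin transcripts were lower too, without being absent. Ccnd1 was 1068 and 1093 CPM in precursors and 457 and 435 CPM in Gpr17-high cells, and Ccnd2 162 and 160 against 61.2 and 75.9 CPM. When all cells with at least 5 G2 and M UMIs per 10000 were left out of both classes, the genes past 2-fold lower in both libraries numbered 15, of which 14 were among the 77. The higher genes then numbered 32, of which 31 were among the first 32. The matricellular gene Ctgf, also among the 10 lowest, had 0 UMIs in Gpr17-high cells, at least 8.62-fold and 15.8-fold lower than in precursors at a floor of 3 counts per library. Of its precursor UMIs 84.0% and 90.7% lay in 1 cell, and in precursors with lineage genes Ctgf was 4.79 and 0 CPM.

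Immediate early genes, whose transcripts surge on stimulation and during tissue dissociation, were lower in Gpr17-high cells. Of 19 measured, 18 were below 0 in both libraries (33.4% over all genes), with medians of -0.32 and -0.46. Past 2-fold lower in both was 1 gene (0.999% over all genes). That gene was Klf2, at 166 and 207 CPM in precursors and 69.2 and 92.3 CPM in Gpr17-high cells. Fos, subunit of AP-1, was 4443 and 4742 against 3382 and 3715 CPM. Whether dissociation played a part was not tested.

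Growth-factor genes pointed the same way. Of 20 measured, 14 were below 0 in both libraries and 2 above (33.4% and 29.6% over all genes), with medians of -0.28 and -0.37. Spry1 and Spry2, feedback inhibitors of receptor tyrosine kinases, were 292 and 323 against 198 and 175 CPM and 207 and 241 against 134 and 131 CPM. Socs3, which dampens JAK-STAT signals, was 432 and 696 CPM in precursors and 192 and 358 CPM in Gpr17-high cells.

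In the BMP pathway only Bmp4 was past 2-fold in both libraries (0.415% of all genes were past 2-fold higher and 0.999% lower). Of 16 measured genes 3 were above and 8 below 0 in both libraries (29.6% and 33.4% over all genes), with medians of -0.28 and -0.17. The receptor genes Bmpr1a (75.2 and 54.6 against 36.9 and 49.65 CPM) and Bmpr2 (101 and 82.5 against 81.9 and 91.1 CPM) and the BMP target Id2 (175 and 188 against 127 and 119 CPM) did not share its difference. Id1 was 62.9 and 42.0 against 41.5 and 48.5 CPM and Id3 36.6 and 44.6 against 47.3 and 49.65 CPM, and the BMP antagonist Nog was 29.8 and 25.1 against 17.3 and 15.2 CPM.

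Of 15 measured Notch genes, 8 were below 0 in both libraries and 4 above (33.4% and 29.6% over all genes), with medians of -0.05 and -0.20. The receptor Notch1 was 191 and 189 CPM in precursors and 148 and 124 CPM in Gpr17-high cells. Its target Hes1 was 299.6 and 209 against 239 and 106 CPM, and the ligand Dll3 81.6 and 128 against 78.5 and 99.9 CPM.

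Enzymes of sialic acid and of the antigens used in the sort were also measured. Besides Neu4, the lysosomal sialidase Neu1 was 35.0 and 32.0 CPM in precursors and 40.4 and 35.6 CPM in Gpr17-high cells, and Neu3 was under 1 CPM in both. The enzymes of sulfatide, which the O4 antibody binds, were higher: Fa2h at 38.6 and 49.7 against 92.3 and 120 CPM, Gal3st1 at 190 and 194 against 280 and 304 CPM, and Ugt8a at 144 and 137 against 198 and 175 CPM. St8sia1, which makes gangliosides of the A2B5 group, was 65.7 and 44.8 against 45.0 and 42.1 CPM. Ncam1, the main carrier of polysialic acid, was 474 and 512 against 752 and 804 CPM. Cells with too little of both antigens would have been left out by the sort.

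**Figure D3:**
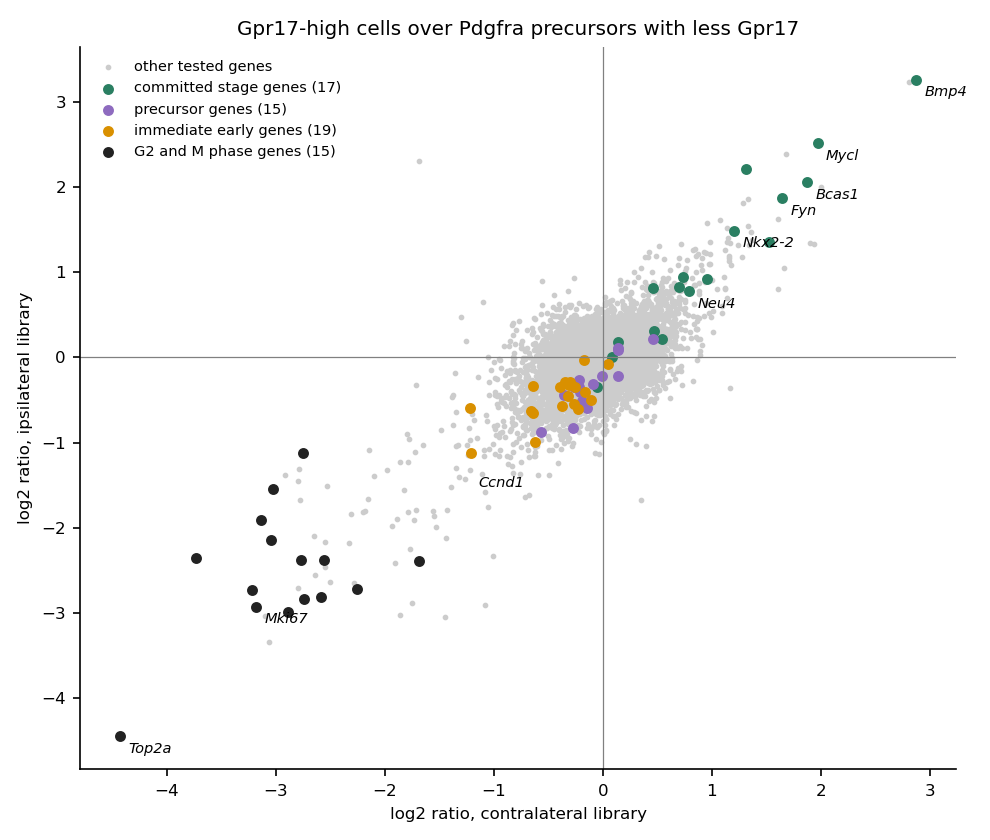
Each point is 1 gene: its log2 ratio in Gpr17-high cells over Pdgfra precursors in the contralateral (x axis) and ipsilateral library (y axis). Committed-stage genes lie at the upper right, led by Bmp4 at 2.87 and 3.26, and G2 and M phase genes at the lower left, with Top2a at -4.43 and -4.45.

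Between the sides, Gpr17-high cells differed by 2-fold or more in few genes. Of 7656 genes compared, 37 (0.483%) had a log2 ratio, ipsilateral over contralateral, of at least 1 and 29 (0.379%) of at most -1. The median over all genes was -0.04, and 44.7% were above 0. Gpr17 itself was 1987 and 1893 CPM, Neu4 613 and 500 CPM (log2 ratio -0.29), Bmp4 317 and 431 CPM (0.44) and Pdgfra 797 and 629 CPM (-0.34).

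Most of the largest ipsilateral ratios came from 1 cell. A single ipsilateral barcode with 38382 UMIs held 62 Gpr17, 43 Bmp4 and 15 Neu4 UMIs together with 129 of the 132 Cldn5 UMIs of all 117 cells, Cldn5 being a tight-junction gene of endothelium. It also held 253 of 265 Igfbp7, 68 of 70 Apln, 57 of 61 Angpt2, 78 of 78 Pglyrp1 and 80 of 109 Col4a1 UMIs, and Scrublet did not mark it. With the cell that holds the most UMIs of each gene left out on each side, Igfbp7 went from 3.61 to 0.02, Cldn5 from 3.09 to -0.33 and Pglyrp1 from 2.79 to -0.31. Igfbp5, an insulin-like growth factor binding protein, took 74.4% and Ptcra, the pre-T-cell receptor alpha chain gene, 63.2% of their ipsilateral UMIs from other single cells. Cenpa, a centromeric histone, was 5.77 and 28.6 CPM, with 42.9% in 1 cell. Only 1 further cell was at 5 or more endothelial UMIs per 10000. It had 1033 UMIs, and its endothelial count was 1 Pecam1 UMI, with 0 of Cldn5 and Flt1. Without the 2 cells, 19 genes in place of 37 were past 2-fold higher, and 26 in place of 29 lower.

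Gadd45g was the named gene higher ipsilaterally across many cells. It encodes a growth arrest and DNA damage inducible protein and lies on chromosome 13 from 51846678 to 51848468. It was 42.7 CPM contralaterally, with a UMI in 15 of 74 cells, and 187 CPM ipsilaterally, with a UMI in 62 of 117, a log2 ratio of 2.01 and a counting interval of 1.64 to 2.66 for the CPM ratio. Thinned to 6921 UMIs, 14.3% (6.75 to 25.4) and 41.3% (31.8 to 51.4) of cells had a UMI. The ratio was 2.09 without each side's top cell, 2.05 in members with at least 5 Pdgfra UMIs per 10000 and 1.61 in those with fewer. In Pdgfra precursors it was 27.5 and 110 CPM (1.83) and in newly formed cells 41.0 and 73.0 CPM (0.76). Endothelial cells also had it, in 33.8% and 36.5% of thinned cells.

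Genes lower ipsilaterally were spread over cells. Pcp4, a calmodulin-binding protein, was 292 CPM with a UMI in 49 of 74 contralateral cells and 106 CPM with a UMI in 44 of 117 ipsilateral cells, a log2 ratio of -1.42. Cntn4, an adhesion molecule of the contactin family, was 48.5 CPM in 29 cells and 14.6 CPM in 21 cells (-1.45). Cxcl14, a chemokine, was 71.5 CPM in 31 cells and 23.4 CPM in 29 cells (-1.43). C1qtnf4, a secreted C1q and TNF-related protein, was 190 and 70.1 CPM (-1.38) and Plce1, a phospholipase C, 35.8 and 11.1 CPM (-1.34). Without the top cell of each gene these 5 ratios lay between -1.45 and -1.35. They differed between members with at least 5 Pdgfra UMIs per 10000 and those with fewer. In that order the ratio was -0.73 and -2.72 for Pcp4, -0.70 and -2.44 for C1qtnf4, -1.09 and -0.82 for Cxcl14, -1.28 and -1.12 for Cntn4 and -1.05 and -1.37 for Plce1.

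The genes were chosen for their extreme ratios in Gpr17-high cells, so their ratios in precursors are given as values only. In Pdgfra precursors Pcp4 was 197 and 98.1 CPM (-0.97), Cxcl14 117 and 81.7 CPM (-0.50), C1qtnf4 132 and 93.01 CPM (-0.48) and Cntn4 38.2 and 34.6 CPM (-0.13). The remaining genes of the 10 were Sipa1l1, a Rap GTPase activator, at 71.5 and 28.04 CPM, the transcription factors Hlf at 56.5 and 21.6 CPM and Arnt2 at 69.2 and 28.6 CPM, Hist1h4d at 39.2 and 13.4 CPM and Mterf1a at 36.9 and 12.8 CPM. The last pair have near-identical copies in the genome, so their counts are uncertain.

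**Figure D4:**
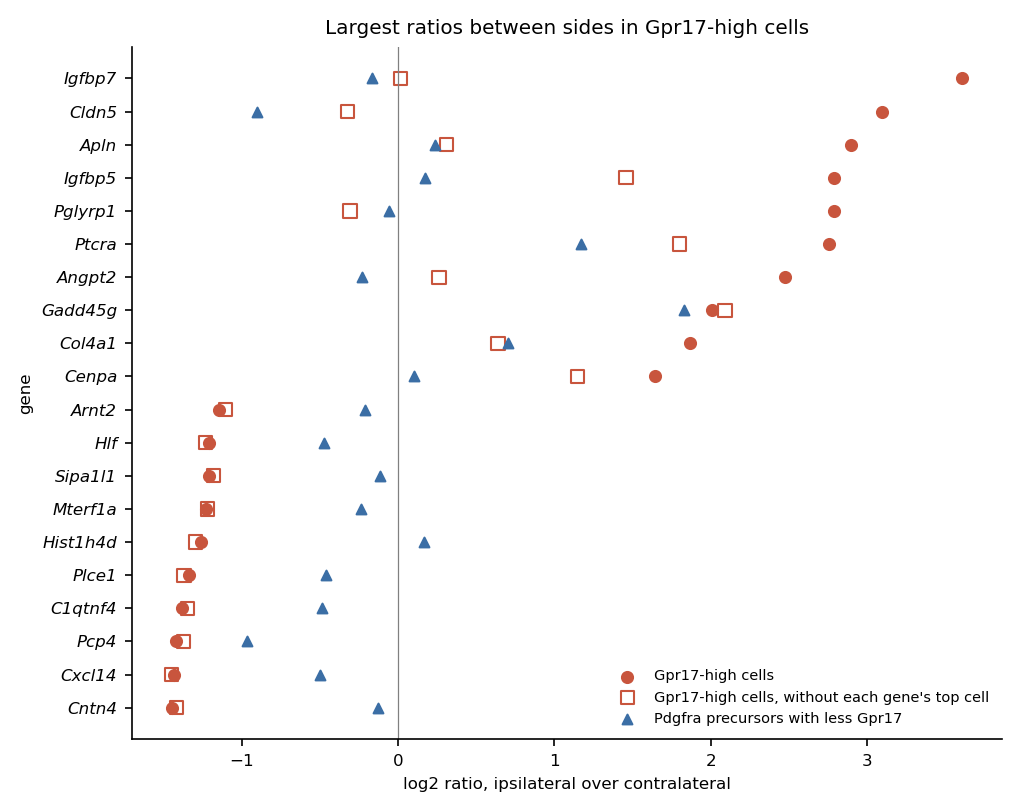
Log2 ratio, ipsilateral over contralateral (x axis), of the 10 highest and 10 lowest named genes (y axis) in Gpr17-high cells (red dots), in the same cells without the cell holding most UMIs of each gene (open squares), and in Pdgfra precursors (blue triangles). Igfbp7, Cldn5 and Pglyrp1 return to between -0.33 and 0.02 without their top cell, whereas Gadd45g stays at 2.09.

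Which genes were counted past 2-fold depended on the members and on the number of UMIs left. The minimum of 50 summed UMIs and 20 CPM was applied again in each subset. A gene could therefore leave a count while its ratio stayed past 2-fold. With at least 20 Gpr17 UMIs per 10000 (17 and 36 cells), 35 genes were higher and 23 lower, but 1 of them was among the 37 and 3 among the 29. Within members with at least 5 Pdgfra UMIs per 10000, 15 were higher and 15 lower, 2 and 7 of them shared. Within those with fewer (25 and 51 cells), 72 were higher and 53 lower, 22 and 4 shared.

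Precursor genes were lower ipsilaterally in the Gpr17-high cells as a whole, and the difference lay in the members with little Pdgfra. All 16 were below 0 (44.7% of all genes were above), with a median of -0.33, against -0.12 for the same genes in Pdgfra precursors. In members with at least 5 Pdgfra UMIs per 10000, 9 were above and 7 below 0 (51.7% of all genes were above), with a median of 0.01. In members with fewer, all 16 were below 0 (44.7% of all genes were above), with a median of -0.53. There Cspg4, the NG2 proteoglycan, was 273 and 145 CPM, Cspg5 926 and 571 CPM and Xylt1 232 and 81.7 CPM. The split uses Pdgfra, itself 1 of the 16, and members with no Pdgfra UMI were 8 of 25 contralaterally and 27 of 51 ipsilaterally. A library difference and a different mix of stages within the split cannot be told apart here.

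Other lists followed the same division. Growth-factor genes were below 0 in 17 of 21 (44.7% of all genes were above 0), with a median of -0.18. That median was 0.12 in members with at least 5 Pdgfra UMIs per 10000 and -0.40 in those with fewer. Notch genes had medians of -0.21, 0.09 and -0.46 in the same order. Among these genes Erbb3, a neuregulin receptor, was 61.2 and 26.9 CPM (-1.05) and Hes1 239 and 106 CPM (-1.14). Hes1 was 332 and 211 CPM with at least 5 Pdgfra UMIs and 78.5 and 20.2 CPM with fewer, and in Pdgfra precursors its ratio was -0.51. Receptors coupled to G proteins were below 0 in 12 of 13, with a median of -0.24 (44.7% of all genes were above 0). These include Gpr17 at -0.07, on which the rule chose the members. Ednrb, the endothelin B receptor, was 690 and 421 CPM (-0.71).

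Of 17 measured committed-stage genes, 9 were above and 8 below 0 between the sides (44.7% of all genes were above), with a median of 0.01. In members with at least 5 Pdgfra UMIs per 10000, 4 were above and 13 below (51.7% of all genes were above), with a median of -0.07, and in those with fewer 9 were above and 8 below, with a median of 0.04. Bcas1 was 756 and 1169 CPM (0.63) and Epb41l2 108 and 206 CPM (0.90), while Neu4 was lower and Fyn was 805 and 973 CPM (0.27). With at least 5 Pdgfra UMIs the ratio of Bcas1 was -0.06 and that of Epb41l2 -0.83. With fewer they were 0.55 and 0.99.

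**Figure D5:**
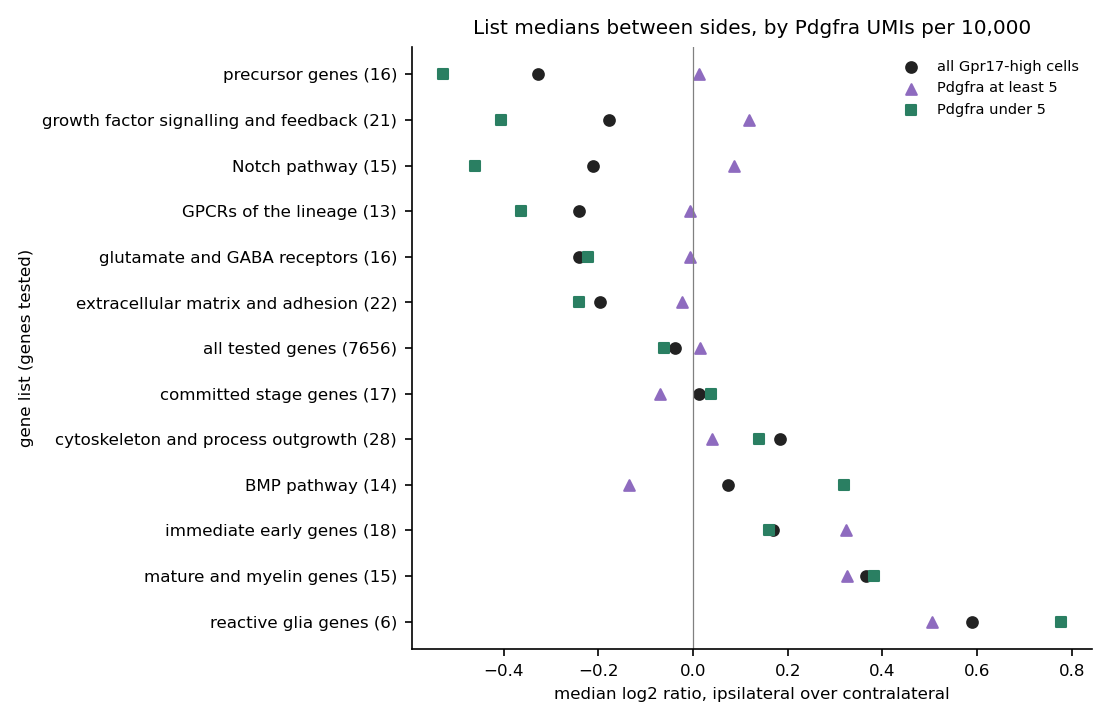
Median log2 ratio, ipsilateral over contralateral (x axis), of 12 gene lists and of all tested genes (y axis, number of genes tested in brackets) in all Gpr17-high cells (black dots) and in those with at least 5 (purple triangles) or under 5 (green squares) Pdgfra UMIs per 10000. Precursor genes are at -0.53 with little Pdgfra and at 0.01 with more.

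Genes of glial reaction were sparse, and 6 of 17 could be measured. Of these 5 were above 0 ipsilaterally over contralaterally (44.7% of all genes were), with a median of 0.59. That median was 0.50 and 0.78 in the groups with more and less Pdgfra and 0.46 for the same genes in Pdgfra precursors. Socs3 was 192 and 358 CPM (0.89) and Cebpd, a transcription factor of inflammation, 60.0 and 110 CPM (0.82). Their ratios in Pdgfra precursors were 0.68 and 0.74. Vim, the filament vimentin, was 30.0 and 67.2 CPM (1.04), which was 0.67 without its top cell and -0.17 in members with more Pdgfra. Gfap, the filament of reactive astrocytes, was 0 contralaterally, which allows up to 3.46 CPM, and 8.18 CPM ipsilaterally.

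Interferon-response genes were too sparse for a statement on the list, with 5 of 23 measured. All 5 were above 0. Ifit3 was 8.08 and 31.0 CPM (1.46), which was -0.68 without its top cell, and Ifi27 was 183 and 247 CPM (0.42) against 162 and 230 CPM in precursors. Of 15 measured myelin genes 12 were above 0 (44.7% of all genes were), with a median of 0.36, against 0.35 for the same genes in precursors. Genes that the rule bounds in both classes, such as Mal (0.39), were not left out of this count. Cldn11, a myelin tight-junction gene, was 86.5 and 164 CPM (0.89), and 82.8 and 159 CPM in precursors. Mature oligodendrocytes numbered 598 and 1067 barcodes, and free RNA from them was not measured, so its part in these low myelin levels was not tested.

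Immediate early genes, lower in Gpr17-high cells than in precursors, were slightly higher ipsilaterally. Of 18 measured, 15 were above 0 (44.7% of all genes were), with a median of 0.17. Junb, a subunit of AP-1, was 502 and 741 CPM (0.56) in Gpr17-high cells and 603 and 1084 CPM (0.84) in precursors. Cytoskeletal genes were above 0 in 20 of 28 (44.7% over all genes), with a median of 0.18. Tuba1a, an alpha-tubulin, was 4428 and 5850 CPM (0.40), and Stmn1, which destabilises microtubules and is high in dividing cells, 73.9 and 190 CPM (1.30). The ratio of Stmn1 in Pdgfra precursors was 0.64.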

How the data were processed

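Droplet single-cell RNA was measured in 2 libraries, 1 per side, each of 3 pooled animals, grouped by the treatment label. The deposited values are UMI counts, 1 for each gene in each barcode. Cell Ranger 3.1.0 and mm10 are named per the submitters' processing notes. The gene annotation is not given in the sources used here, and RNA of empty droplets was not measured. Libraries held 2066 and 2775 barcodes and 36063045 and 54788795 UMIs.

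Members and gene lists were chosen with earlier results of these data known. UMIs were summed per library and class, scaled to CPM and compared as log2 ratios after adding 5 CPM. Genes needed at least 50 summed UMIs and 20 CPM in a class. Sums carry exact Poisson and shares exact Clopper-Pearson intervals. Differences of shares combine these exact limits by the square-and-add step of Newcombe's method. Named genes are the 10 largest and 10 smallest ratios of each comparison (mean of both libraries for members over precursors, without the 7 genes of the rule), from each described list at most 4 genes of largest absolute ratio, and genes of the BMP, Notch and sialic acid lists with a role in the text. Mitochondrial, ribosomal protein, predicted and clone-named genes were left out. Some further list members were named for their role, after their values were seen. Python 3.11.15, scipy 1.17.1 and scanpy 1.11.5 (Scrublet) were used. The summing and ratio steps were tested on simulated counts. Positions are from GENCODE M21. Promoters come from a RefSeq table in which 7 of the 10 genes with the largest ratios were matched. Alternatives were other thresholds, filters, added CPM, weightings and subsets of cells. A result for 1 transcription factor is not reported here.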

Additional observations from a re-analysis of the deposited data

Results flagged for a closer look

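Cldn5 is the result marked for a closer look. Its log2 ratio, ipsilateral over contralateral, was 3.09 in Gpr17-high cells and -0.90 in Pdgfra precursors, opposite directions that lie 3.99 apart. The difference itself was not tested, since each side is 1 library. In Gpr17-high cells 97.7% of the ipsilateral Cldn5 UMIs lay in 1 cell of 38382 UMIs, which also held 24 Flt1 and 23 Pecam1 UMIs.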

How the results depend on the processing

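Genes past 2-fold higher ipsilaterally, 37 at first, numbered 60 with 1 CPM added, 12 with 20 CPM, 57 at 20 summed UMIs or with no minimum, 12 at 100 summed UMIs, 23 in cells with few UMIs of other types, 15 and 72 in members with more and less Pdgfra, and 19 without the 2 cells with endothelial markers. The 29 lower genes became 49, 5, 45 and 12 under the first of these settings, 15 and 53 in the Pdgfra groups, and 13 with Gpr17 at least 5. Over precursors, 32 higher genes became 10 with Gpr17 at least 5, 94 with Gpr17 at least 20 and 19 with 20 CPM. The 77 lower genes became 273 with Gpr17 at least 20, 45 with 20 CPM, 46 at 100 summed UMIs, 15 without cycling cells and 42 against precursors with Gpr17 under 2.

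Ratios between the sides that turned were Cldn5 (-0.33 without the top cell, -0.50 without the 2 cells, -0.44 with few UMIs of other types, -0.73 with more Pdgfra), Pglyrp1 (-0.31, -0.55, -0.39 and -0.79 likewise), Igfbp7 (-0.10 without the 2 cells, -0.42 with few UMIs of other types, -1.09 with Gpr17 at least 20), Apln (-0.030 with few UMIs of other types), Col4a1 (-0.040 likewise, -0.12 with Gpr17 at least 20), Cenpa (-0.66) and Sipa1l1 (0.18) with Gpr17 at least 20, and Sipa1l1 with less Pdgfra (0.015). Over precursors Prc1 was 0.35 without cycling cells. With Gpr17 at least 5 the medians of precursor genes and of G-protein-coupled receptors over precursors were 0.052 and 0.015. The ipsilateral median of precursor genes was 0.014 with more Pdgfra.

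The subsets by Pdgfra, endothelial markers, lineage genes and each gene's top cell were chosen after seeing the data. Counts in subsets of cells cover only genes that reached the UMI and CPM minimum there. For settings other than subsets of cells, the cause was not tested. No paired analysis was possible because each side is 1 library. Depth limits the ratios of the cell-cycle genes, which rest on few UMIs in Gpr17-high cells (Top2a on 1 contralaterally).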

Other observations

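Lists not described above gave these values in Gpr17-high cells. Of 20 measured cholesterol synthesis genes, 9 were above and 11 below 0 ipsilaterally over contralaterally, with a median of -0.06 (44.7% of all genes were above 0). In members with at least 5 Pdgfra UMIs per 10000, 4 were above and 16 below, with a median of -0.26 (51.7% of all genes above), and in members with fewer 15 were above and 5 below, with a median of 0.10 (44.7% of all genes above). Nuclear genes of oxidative phosphorylation were above 0 in 18 of 24, with a median of 0.06 against -0.04 over all genes. They were above 0 in 11 and 17 of 24 in members with more and less Pdgfra. Heat shock genes were above 0 in 9 of 11, with a median of 0.13. Glutamate and GABA receptor genes were below 0 in 12 of 16 between the sides (median -0.24) and in 12 of 15 in both libraries over precursors (medians -0.22 and -0.22), where 33.4% of all genes were below 0 in both. Ion channel genes were below 0 in both libraries over precursors in 12 of 20, with medians of -0.31 and -0.41.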
